A study of Mus musculus with 20 samples.

Results

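The mitochondrial ribosome and its translation factors were followed in mouse heart ventricle through 65 genes of 8252 that had a probe set naming 1 gene. The genes were chosen by symbol: 40 named Mrpl (proteins of the large subunit), 21 named Mrps (proteins of the small subunit) and the 4 translation factor genes Tufm, Tsfm, Gfm1 and Mtif2. The other 4 factor genes sought (Gfm2, Mtif3, Mtrf1 and Mrrf) had no probe set naming 1 gene. The 65 genes had 81 such probe sets, and each gene was read from the one with the highest mean over the arrays. Another 5 probe sets that name a mitochondrial ribosomal protein gene together with a second gene were left out. After a filter that kept the brightest 60% of probe sets, 60 of the 65 genes were tested: 38 of the large subunit, 18 of the small subunit and all 4 factors. Mrpl14, Mrpl42, Mrps5, Mrps15 and Mrps22 were too dim. The filter lay at a mean of 5.47 (log2 intensity), with Mrpl17 at 5.66 and Mrpl55 at 5.69 just inside, and Mrps15 and Mrps22 both at 5.38 just outside.

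RNA from ventricle was hybridised to Affymetrix arrays in 4 groups. FVBN control (2 arrays) and FVBN + Doxy (4 arrays) carried no transgene, FVBN being taken as the FVB/N mouse strain, which the labels describe as wild type. The tTA (8 arrays) and tTA + Doxy (5 arrays) groups expressed the tetracycline transactivator in the heart on the FVBN background, and the labels list the alpha MHC promoter, the Myh6 promoter of cardiomyocytes, as a keyword. Doxy is doxycycline, a tetracycline that keeps the transactivator off its operator sequences. For neither Doxy nor the mice do the sources used here give a dose, a duration, an age or a sex. Nothing in the labels states that each array is a different mouse; p-values therefore reflect the spread between samples, which may be technical, and the small number of arrays limits the precision. The numbers in the labels run in separate blocks. They are 8177 and 8182 for FVBN control and 8337 to 8341 for FVBN + Doxy. For tTA they are 7288 to 7311 with 9310 and 9322, and for tTA + Doxy 7399 to 7488. The labels do not say what the numbers stand for, and they serve here as names of the arrays. Any difference that goes with these blocks cannot be told apart from the groups.

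Mitochondria keep their own ribosome, which translates a small set of respiratory chain subunits encoded in mitochondrial DNA. All of its proteins are encoded in the nucleus and imported. Tetracyclines bind the small subunit of bacterial ribosomes at the site where aminoacyl-tRNA enters, and they also inhibit the mitochondrial ribosome, which descends from a bacterial one. Heart muscle is dense in mitochondria and depends on this translation for the respiratory chain.

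Promoters of these genes can carry sites for NRF1, for ETS factors such as GABP, and for YY1, factors known for their part in nuclear control of mitochondrial genes. Stretches of 150 bases directly before the transcription start are shown for 5 of the 6 genes that were called higher in tTA + Doxy than in FVBN + Doxy, the comparison with the most called members; Mrpl54 is named only. They come from RefSeq (mouse build GRCm38.p6), run 5′ to 3′ on the strand of the gene, and capitals mark the ETS core letters CCGGAAG. Mrpl27 lies at chr11:94653641-94653790 (plus strand), Mrpl43 at chr19:45006443-45006592 (minus strand), Mrpl20 at chr4:155802728-155802877 (plus strand), Mrps10 at chr17:47369047-47369196 (plus strand) and Mrps25 at chr6:92184024-92184173 (minus strand).
Mrpl27: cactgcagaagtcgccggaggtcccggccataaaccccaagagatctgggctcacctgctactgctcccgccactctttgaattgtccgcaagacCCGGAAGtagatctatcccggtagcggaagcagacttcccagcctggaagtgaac
Mrpl43: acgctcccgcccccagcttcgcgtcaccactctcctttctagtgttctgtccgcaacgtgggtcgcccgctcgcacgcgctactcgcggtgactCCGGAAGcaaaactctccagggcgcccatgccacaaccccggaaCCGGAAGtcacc
Mrpl20: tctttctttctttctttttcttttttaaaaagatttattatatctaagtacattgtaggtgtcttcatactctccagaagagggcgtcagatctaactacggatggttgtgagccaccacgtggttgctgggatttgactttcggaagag
Mrps10: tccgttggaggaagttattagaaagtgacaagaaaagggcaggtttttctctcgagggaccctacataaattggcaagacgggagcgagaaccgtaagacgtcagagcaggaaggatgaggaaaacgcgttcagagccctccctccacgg
Mrps25: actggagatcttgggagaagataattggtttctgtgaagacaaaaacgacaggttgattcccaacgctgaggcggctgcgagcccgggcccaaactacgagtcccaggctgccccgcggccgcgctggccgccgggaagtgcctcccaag

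The ETS letters began 55 bases before the start in Mrpl27, and 56 and 12 bases before it in Mrpl43. Neither these letters nor those of the other motifs were found in the windows of Mrpl20, Mrps10 and Mrps25. Over windows from 250 bases before to 50 after the start, searched on both strands, 58 of the 65 genes had a RefSeq entry. The ETS letters CCGGAAG were in 22 of the 58 (37.9%), against 9.93% of the promoters of all 27025 genes in the table and 19.4% of those of 4517 genes with a tested probe set. The YY1 letters AAGATGGCG were in 7 (12.1%), against 1.64% and 3.52%, and the NRF1 letters GCGCATGCG in 3 (5.17%), against 1.95% and 4.03%. The large and small subunits were alike in the ETS share, with 12 of 35 (34.3%) and 7 of 19 (36.8%) promoters. The motifs can overlap, since ETS ends in the AAG with which YY1 begins and YY1 ends in the GCG with which NRF1 begins, and a match describes the letters in the window only.

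The mean log2 intensity of the 60 tested genes on each array gives the overall level of the group. It was 7.515 ± 0.027 (SD, n = 2) in FVBN control, 7.436 ± 0.042 (SD, n = 4) in FVBN + Doxy, 7.416 ± 0.026 (SD, n = 8) in tTA and 7.473 ± 0.026 (SD, n = 5) in tTA + Doxy. Both FVBN control arrays, 7.496 and 7.534, lay above every FVBN + Doxy array (7.398 to 7.494) and every tTA array (7.370 to 7.445). The tTA + Doxy arrays (7.444 to 7.505) overlapped every other group. In the tTA group 2 arrays, both at 7.445, lay above the lowest tTA + Doxy array, 7424 at 7.444. In whole tissue, fewer cells of a type and less RNA per cell cannot be told apart.

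**Figure D1:**
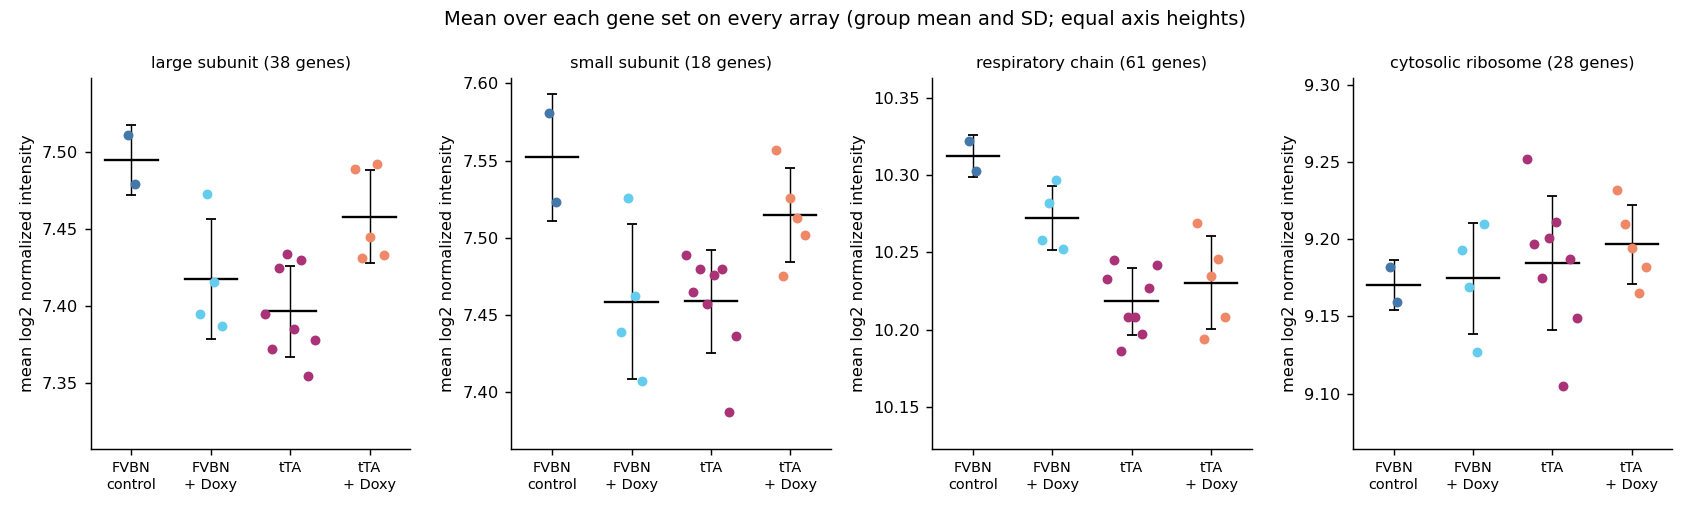
Mean log2 normalized intensity (y axis) of 38 large subunit genes, 18 small subunit genes, 61 nuclear respiratory chain genes and 28 cytosolic ribosomal protein genes, a panel each, in the 4 groups; each point is 1 array, and the bar and whisker are the group mean and SD. Group means of the large subunit run from 7.397 in tTA to 7.495 in FVBN control, while those of the cytosolic ribosome run from 9.171 to 9.196.

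Single genes varied little between arrays of a group, with a pooled within-group SD from 0.05 (log2) to 0.16 and a median of 0.09, the highest being that of Mrps25. The group with the highest mean was FVBN control for 37 of the 60 genes, against 27.6% of all tested probe sets, and the group with the lowest mean was tTA for 30 of the 60, against 18.4%. FVBN + Doxy was lowest for 22 (25.4% of all tested), tTA + Doxy for 5 (22.2%) and FVBN control for 3 (34%).

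**Figure D2:**
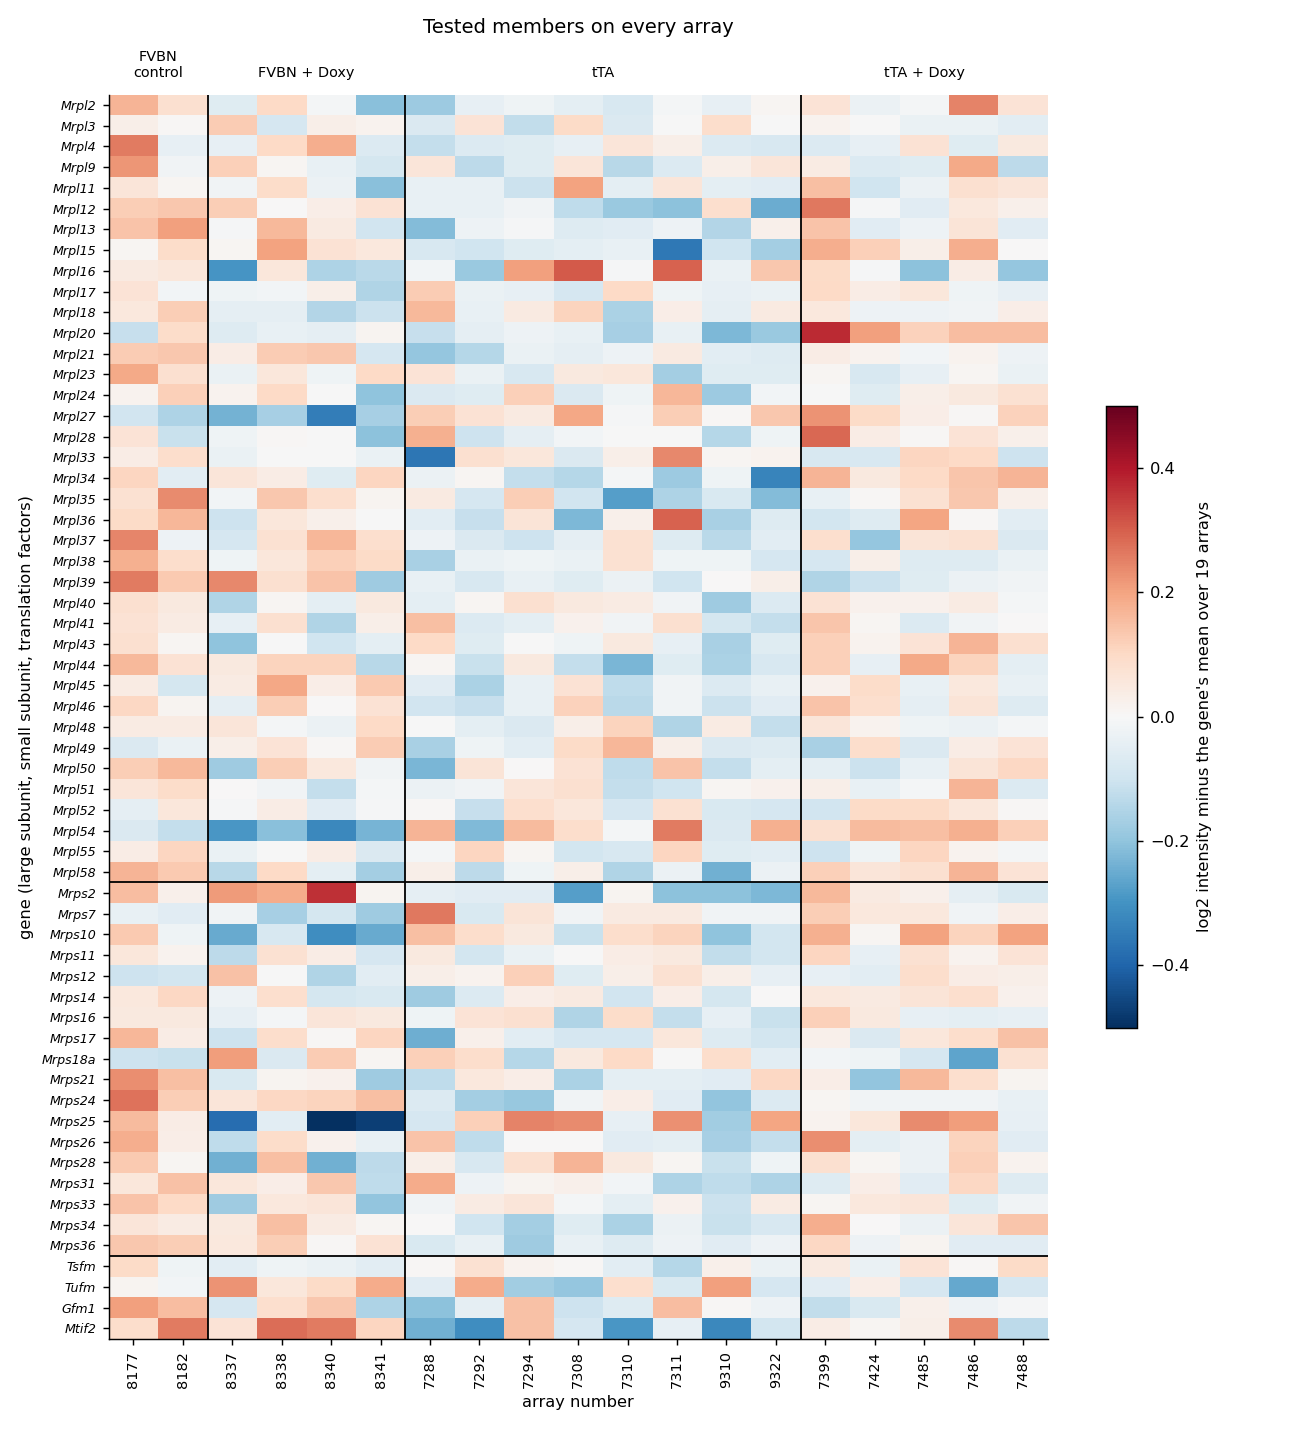
Difference (log2) of each array from the mean over the 19 arrays for the 60 tested genes, one row a gene and one column an array, grouped by subunit and by condition; the colour scale ends at 0.5 in either direction. Most rows are above their mean in FVBN control and below it in tTA, and Mrps25 and Mrps10 have their lowest group mean in FVBN + Doxy.

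In wild-type ventricle, no mitochondrial ribosome or translation factor gene passed the test for Doxy (FVBN + Doxy against FVBN control). The values leaned one way: 49 of 60 had a log2 fold change below 0, against 46.4% of all tested probe sets, and the median was -0.076, against 0.010 over all tested. With arrays scaled to a common median it was -0.122, against -0.009 over all tested. In limma with Benjamini-Hochberg adjustment, 0 of 60 were called, with a background of 0.0403% of the 7453 tested probe sets. At an unadjusted p under 0.05 there were 9 members, all lower (15%), against 11.8% of all tested in either direction, 6.45% lower and 5.37% higher. The 2 control arrays and 4 treated arrays did not overlap in 17 members that were lower under Doxy (background 10.8%) and in 3 that were higher (background 12.7%: Mrpl49, Mrps18a and Tufm).

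On the probe set used for each gene, the lowest p-values in this comparison were those of the small subunit genes Mrps25, Mrps10 and Mrps21. Mrps25, a small subunit protein specific to mitochondria, read 7.16 and 7.04 (log2 intensity) in FVBN control and 6.62, 6.95, 6.50 and 6.53 in FVBN + Doxy. All 4 treated arrays lay below both controls, with array 8338 the nearest to them. The log2 difference was -0.45 ± 0.12 (SE), with a limma adjusted p of 0.265. Its second, non-family probe set read 6.53 and 6.33 in FVBN control and 6.15, 6.28, 6.11 and 5.99 in FVBN + Doxy, with the same order of groups and a smaller difference, -0.30 ± 0.09 (adjusted p = 0.269).

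Mrps10, which sits in the head of the small subunit, read 6.73 and 6.58 in FVBN control and 6.35, 6.52, 6.29 and 6.35 in FVBN + Doxy. The treated arrays again lay below both controls (-0.28 ± 0.09, limma adjusted p = 0.334). Mrps21 (-0.25 ± 0.09) and Mrps33 (-0.19 ± 0.07), 2 further small subunit genes, showed the same separation of arrays without passing the test (limma adjusted p = 0.353 and 0.363). Mrps28 (-0.19) was the fifth small subunit gene with an unadjusted p under 0.05, and its arrays overlapped. In the large subunit, Mrpl58 read 6.99 and 6.95 in FVBN control and 6.68, 6.92, 6.77 and 6.65 in FVBN + Doxy. Mrpl58 is a peptidyl-tRNA hydrolase that frees stalled ribosomes as well as a subunit, and its difference was -0.21 ± 0.07 (limma adjusted p = 0.357). Mrpl18 (-0.17), Mrpl2 (-0.17) and Mrpl43 (-0.13) were next in the large subunit. A dimmer tested probe set of Mrpl18 gave -0.33 ± 0.10 (limma adjusted p = 0.269). That of Mrpl2 had the opposite sign, 0.10 ± 0.12. Mrps18a was the member with the largest positive value, 0.18 ± 0.09, read from a probe set of reduced specificity, and its plain probe set gave 0.03 ± 0.06. Despite its symbol, Mrps18a lies in the large subunit in structures of the mammalian ribosome, and it is counted here by symbol.

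In tTA ventricle the values leaned the other way under Doxy (tTA + Doxy against tTA): 49 of 60 had a log2 fold change above 0, against 45.6% of all tested probe sets, with a median of 0.044 against -0.006 (0.070 against 0.003 with arrays scaled to a common median). One member was called in limma with Benjamini-Hochberg adjustment, the large subunit gene Mrpl20, which was higher, against a background of 0.0671% of tested probe sets. Another 14 members had an unadjusted p under 0.05, all higher, which makes 15 of 60 (25%) against 7.7% of all tested in either direction, 4.79% higher and 2.91% lower. The groups of 8 and 5 arrays did not overlap in 4 members, all higher under Doxy (background 0.201%): Mrpl15, Mrpl20, Mrpl34 and Mrpl58. No member was lower on every array (background 0.188%).

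Mrpl20, a protein of the large subunit with a counterpart in bacteria, had its lowest value in the tTA group at 6.90, its median at 7.04 and its highest value at 7.10, and read 7.50, 7.33, 7.24, 7.28 and 7.28 in tTA + Doxy. Every tTA + Doxy array lay above every tTA array, and array 7399 was the highest. The log2 difference was 0.31 ± 0.05 (SE), a fold of 1.24 (limma adjusted p = 0.00578), in 5 of 5 arrays. In FVBN the same gene read 7.01 and 7.22 without Doxy and 7.06, 7.09, 7.08 and 7.14 with it, a difference of -0.02 ± 0.07. The call in tTA held in every alternative run but one: with all probe sets in the fit the difference was 0.31 and the adjusted p 0.0511.

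The other 3 separated members did not pass. Mrpl34, a short large subunit protein with a bacterial counterpart, ran from 8.07 to 8.41 in tTA with a median of 8.33, and read 8.57, 8.45, 8.50, 8.54 and 8.57 in tTA + Doxy. Its difference was 0.23 ± 0.05 (limma adjusted p = 0.101), and it was called with arrays scaled to a common median (0.26, adjusted p = 0.0448), with no further normalization (0.25, adjusted p = 0.0476) and with array weights (0.25, adjusted p = 0.0435). Mrpl15 ran from 7.52 to 7.84 in tTA with a median of 7.79, and in tTA + Doxy its lowest and highest values were 7.88 and 8.06 (0.22 ± 0.05, limma adjusted p = 0.101). Its lowest tTA array, 7311 at 7.52, stood apart from the rest of the group. Mrpl58 ran from 6.58 to 6.85 in tTA and read 6.94, 6.88, 6.90, 6.99 and 6.89 in tTA + Doxy (0.17 ± 0.05, limma adjusted p = 0.334). In the small subunit the lowest p-value was that of Mrps34 (0.16 ± 0.04, limma adjusted p = 0.226), followed by Mrps2 (0.16 ± 0.06). Mrpl44 (0.15), Mrpl12 (0.15), which also binds the mitochondrial RNA polymerase, and the initiation factor gene Mtif2 (0.19) were among the members with the next lowest p-values.

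**Figure D3:**
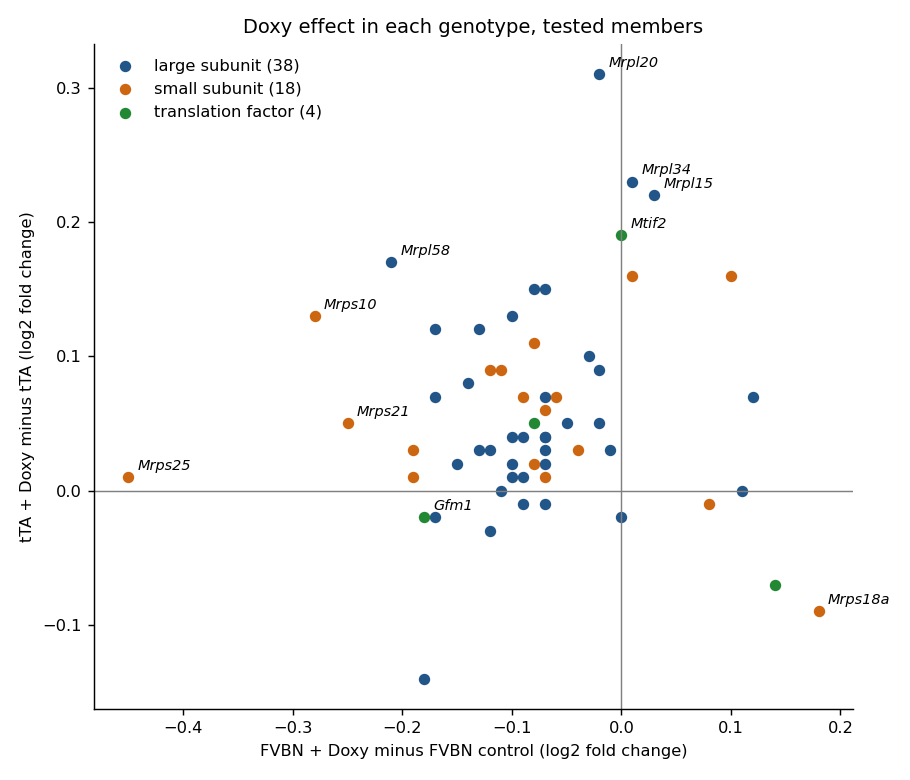
Log2 fold change under Doxy in FVBN (x axis) against that in tTA (y axis) for the 60 tested genes, coloured by subunit; the 2 comparisons share no arrays. The upper left part of the plot holds 43 genes, and Mrpl20 is the highest on the y axis at 0.31.

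The Doxy differences of the 2 genotypes, which share no arrays, had opposite signs for most members, as for most tested probe sets, but in the other order. In 43 of 60 (71.7%) the value was below 0 in FVBN and above 0 in tTA, against 26.9% of all tested probe sets. It was so for 28 of 38 large subunit genes and 14 of 18 small subunit genes. Of the rest, 6 were below 0 in both genotypes (19.6% of all tested), 6 above 0 in both (18.7%), and 5 above 0 in FVBN and below 0 in tTA (34.8%).

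The test of the difference itself (Doxy in tTA minus Doxy in FVBN) called 0 of 60 members in limma with Benjamini-Hochberg adjustment, against a background of 0.0134%. It was above 0 in 54 of 60, against 47% of all tested, and below 0 in 6, against 53%, with a median of 0.134 against -0.011. An unadjusted p under 0.05 was reached by 17 members (28.3%), 16 of them above 0, against 14.5% of all tested in either direction, 7.02% above 0 and 7.53% below. The lowest p-values were those of Mrpl58 (0.38 ± 0.09), Mrps10 (0.40 ± 0.11), Mrpl20 (0.33 ± 0.09), Mrpl43 (0.25 ± 0.08) and Mrpl2 (0.29 ± 0.09), with limma adjusted p-values from 0.19 to 0.241. A dimmer tested probe set of Mrpl2 had the opposite sign, -0.06 ± 0.15. Mrpl18, at 0.16 ± 0.08 on the probe set used, gave 0.49 ± 0.12 on a dimmer one (limma adjusted p = 0.19). The 95% interval of the difference ran from 0.20 to 0.56 in Mrpl58, before any adjustment for the number of genes. Mrps25, Mrps21, Mrps14 and Mrpl13 followed with values from 0.20 to 0.45, and Mrps18a (-0.27 ± 0.10) was the member with an unadjusted p under 0.05 that was below 0. The plain probe set of Mrps18a gave 0.03 for the same difference. With arrays scaled to a common median the split of higher to lower calls over all tested probe sets was 5 to 1 in this test, against 0 to 1; it was 7 to 3 against 3 to 2 for Doxy in tTA (8 to 3 with no further normalization), and 0 to 2 against 2 to 1 for Doxy in FVBN (1 to 2 with no further normalization).

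Averaged over both genotypes, the Doxy difference called 0 of 60 members in limma (background 0.0403%) and 10 at an unadjusted p under 0.05, 6 higher and 4 lower, against 6.56% of all tested (2.72% higher and 3.84% lower). Of the members 20 were above 0, against 53.1% of all tested, and 40 below, against 46.9%. The median was -0.015, against 0.004 over all tested, and it was -0.002 without FVBN control array 8177, -0.027 without 8182, -0.024 without FVBN + Doxy array 8338, -0.006 without 8341 and -0.008 without tTA + Doxy array 7424. The lowest p-values belonged to Mrpl20 (0.14 ± 0.04) and Mrps25 (-0.22 ± 0.07), with limma adjusted p-values of 0.382 and 0.442. Mrpl15, Mrpl16, Mrpl18, Mrpl34, Mrpl45, Mrps2, Mrps33 and Mrps34 followed, with values from -0.16 to 0.13. Mrpl45 was at 0.10 ± 0.04 on the probe set used and at 0.02 ± 0.04 on a dimmer tested one. For Doxy in FVBN these probe sets had opposite signs, 0.12 ± 0.06 and -0.10 ± 0.07.

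The large and small subunits lay close to each other under Doxy. The median log2 fold change of the large and small subunit genes was -0.083 and -0.076 in FVBN, 0.041 and 0.057 in tTA, -0.022 and -0.007 averaged over genotypes, and 0.125 and 0.154 for the difference between genotypes. On each array, the mean of the large subunit genes minus that of the small subunit genes was -0.057 ± 0.018 (SD, n = 2) in FVBN control, -0.041 ± 0.014 (SD, n = 4) in FVBN + Doxy, -0.062 ± 0.028 (SD, n = 8) in tTA and -0.057 ± 0.024 (SD, n = 5) in tTA + Doxy. The classes follow the symbols, although Mrps18a lies in the large subunit in structures and Mrps36 has since been described outside the ribosome. For Doxy in FVBN and in tTA, the large minus small difference of medians was -0.007 and -0.016 by symbol, -0.003 and -0.025 with Mrps18a in the large subunit, and -0.006 and -0.011 without Mrps36. The group means of the offset per array differed by less than its SD within the tTA group, the largest SD of the 4 groups. The ranges of all 4 groups overlapped, and the difference between group means was not tested. The difference of medians for Doxy in FVBN changed sign to 0.025 with arrays scaled to a common median or left without further normalization. Single genes of both subunits were at the extremes, Mrpl20 in the large and Mrps25 and Mrps10 in the small.

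**Figure D4:**
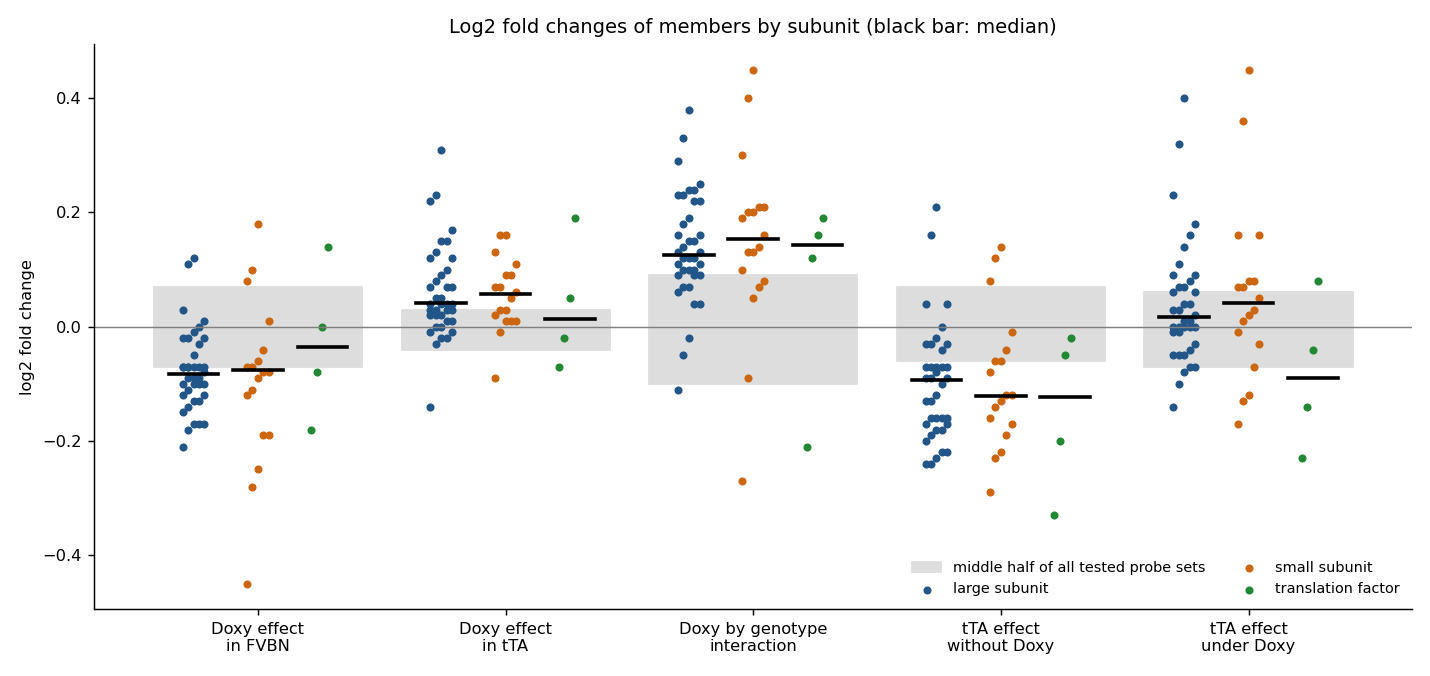
Log2 fold changes of the large subunit genes, small subunit genes and translation factors (y axis) in 5 comparisons (x axis); each point is 1 gene, the black bar is the median of its class and the grey band is the interquartile range of all tested probe sets. The medians of the large and small subunits lie beside each other, at -0.083 and -0.076 for Doxy in FVBN.

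Without Doxy, the ventricles expressing the transactivator had lower values than wild type for most mitochondrial ribosome genes, few of which passed the test (tTA against FVBN control): 52 of 60 had a log2 fold change below 0, against 44.9% of all tested probe sets, and the median was -0.107 against 0.013. Called lower in limma with Benjamini-Hochberg adjustment were Mrps24, of the small subunit, and Mrps36, counted with it by symbol, 2 of 60 members (3.33%), close to the background of 2.82% (1.82% called lower and 0.993% higher). At an unadjusted p under 0.05 there were 23 members (38.3%), 22 of them lower, against 16.6% of all tested in either direction, 8.55% lower and 8.08% higher. The groups did not overlap in 17 members that were lower in tTA (background 6.06%) and in 2 that were higher (background 6.68%), Mrpl27 and Mrps12. This comparison shares its FVBN control arrays with the Doxy comparison in FVBN and its tTA arrays with that in tTA. The leans of these comparisons are therefore not separate observations.

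Mrps24, a small subunit protein at the entry of the messenger RNA channel, read 8.46 and 8.31 in FVBN control, and its lowest value in tTA was 7.99, its median 8.12 and its highest 8.22. All 8 tTA arrays lay below both controls. The log2 difference was -0.29 ± 0.06, a fold of 1.22 lower (limma adjusted p = 0.00711). Without FVBN control array 8177 the difference was -0.21 and the adjusted p 0.29. In FVBN + Doxy the gene read 8.25, 8.29, 8.30 and 8.34 and in tTA + Doxy 8.20, 8.17, 8.17, 8.17 and 8.15, so the transgenic arrays were lower under Doxy too, without a call (-0.12 ± 0.05, limma adjusted p = 0.15).

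Mrps36 carries the name of a small subunit protein but has since been described as a component of the oxoglutarate dehydrogenase complex of the citric acid cycle. It read 8.99 on FVBN control array 8182 and just above that on 8177, and in tTA it ran from 8.69 to 8.84 with a median of 8.82. The 8 tTA arrays were all below both controls (-0.19 ± 0.05, limma adjusted p = 0.0472), and array 7294 at 8.69 stood below the rest. The call sat at the threshold and ended in 19 of 32 alternatives, with adjusted p-values up to 0.342. Among them were the leaving out of either control array (adjusted p = 0.342 without 8177 and 0.204 without 8182), of FVBN + Doxy array 8337, 8338, 8340 or 8341, of tTA array 7288, 7292, 7294, 7308, 7310, 7311 or 9310, and of tTA + Doxy array 7424, 7485 or 7488, with adjusted p-values from 0.0502 to 0.0635 beside those of the controls. The count of called members, 2, became 0 without 8177. It became 4 without FVBN + Doxy array 8341, without which Mrpl13, Mrpl21 and Mrpl39 were called, and 4 without tTA + Doxy array 7399, without which Mrpl13 and Mrpl27 were called. It became 1 without 8182, 8337, 8340, 7288, 7292, 7308, 7310, 9310, 7424, 7485 or 7488.

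Members next in line were mostly of the large subunit. Mrpl13 (-0.24 ± 0.07, limma adjusted p = 0.0585), Mrpl21 (-0.19 ± 0.06, adjusted p = 0.0732), Mrpl39 (-0.23 ± 0.07, adjusted p = 0.0755) and Mrpl58 (-0.22 ± 0.07, adjusted p = 0.0848) were lower on all 8 arrays without passing the test. Mrpl35 (-0.24), which has a bacterial counterpart, and Mrpl38 (-0.17), which has none, were close behind. Mrpl27 stood opposite: it read 7.93 and 7.87 in FVBN control, and in tTA it ran from 8.02 to 8.22 with a median of 8.13. All 8 tTA arrays lay above both controls (0.21 ± 0.06, limma adjusted p = 0.0647).

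With arrays scaled to a common median, 6 members were called, all lower, and with no further normalization 5, all lower. Over all tested probe sets the split of higher to lower calls in this comparison was 74 to 136, against 46 to 221 with arrays scaled to a common median. The median of the members stayed below 0 under both settings, at -0.133 and -0.119. The control probe sets at the 3′ and 5′ ends of beta-actin give a log2 ratio that reads RNA quality, and a fit with this covariate called 0 members, with Mrps24 at -0.25 (adjusted p = 0.187). That ratio averaged 0.549 in FVBN control and 0.323 in tTA, a difference of -0.226 (exact two-sided permutation test, p = 0.0444, adjusted 0.0889 over 4 tests). Its part in the result was not tested beyond that fit.

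Under Doxy the pattern was another (tTA + Doxy against FVBN + Doxy): 6 members were called in limma with Benjamini-Hochberg adjustment, all higher in tTA + Doxy. They were 4 large subunit genes, Mrpl27, Mrpl54, Mrpl20 and Mrpl43, and 2 small subunit genes, Mrps10 and Mrps25. These are 10% of the 60 members, against 5.89% of all tested probe sets called, 4.29% called higher and 1.6% called lower. The members as a whole did not lean as clearly, with 36 of 60 above 0 (43.9% of all tested) and a median of 0.022 against -0.015. That median was 0.044 without FVBN + Doxy array 8338, 0.007 without 8341 and 0.010 without tTA + Doxy array 7486, and 0.049 with arrays scaled to a common median (0.043 with no further normalization). The arrays did not overlap in 8 members that were higher (background 6.24%) and in 2 that were lower (background 3.48%), Mrps24 and Tufm. The comparison shares its tTA + Doxy arrays with the Doxy comparison in tTA and its FVBN + Doxy arrays with that in FVBN.

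**Figure D5:**
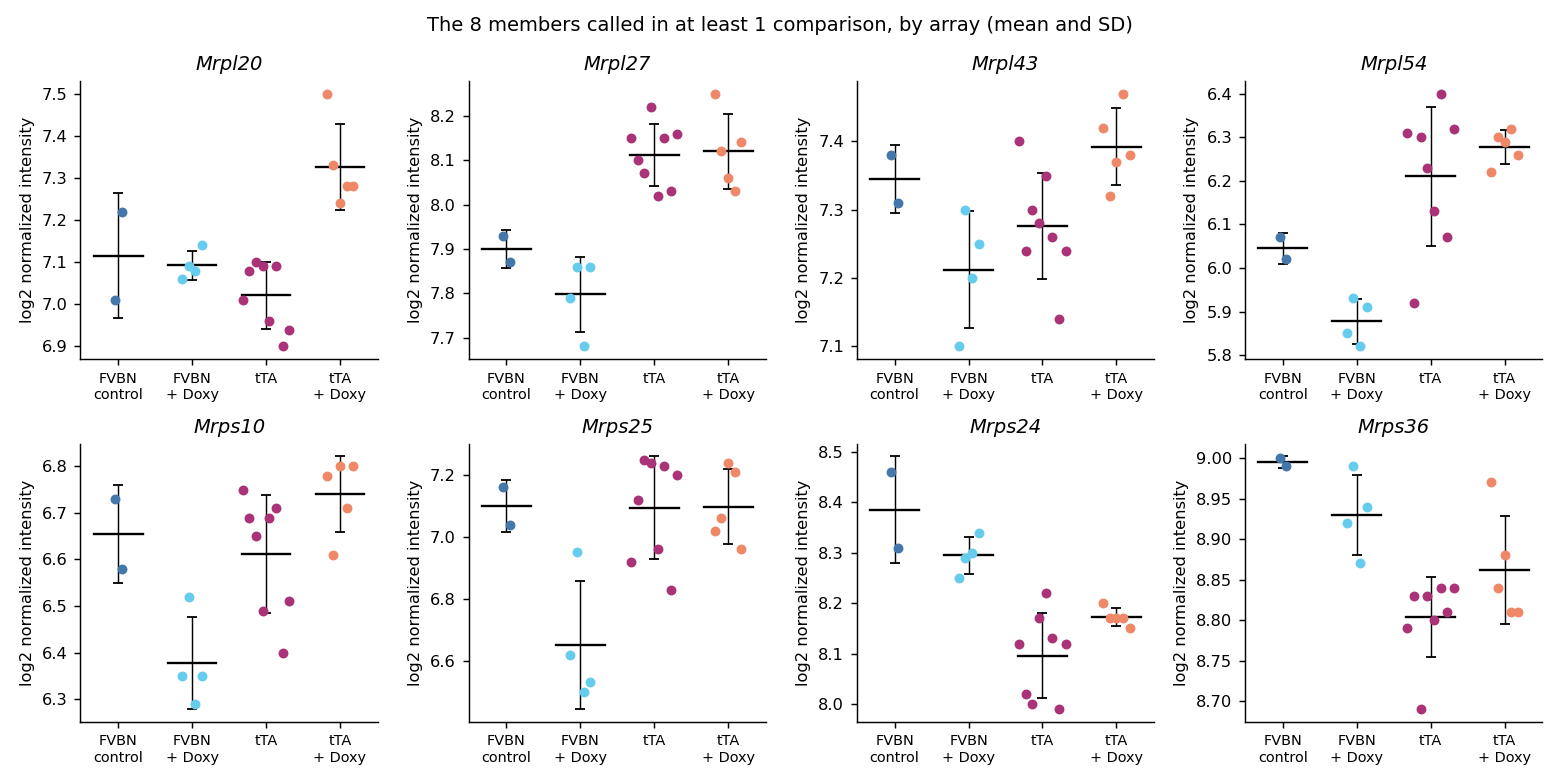
Log2 intensity on each array of the 8 members called in any comparison, in the 4 groups; each point is 1 array, and the bar and whisker are the group mean and SD. Mrpl27 is higher in both tTA groups (8.11 and 8.12) than in both FVBN groups (7.90 and 7.80), while the lowest mean of Mrps25 (6.65) and of Mrps10 (6.38) is that of FVBN + Doxy.

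Mrpl27, a large subunit protein whose bacterial counterpart reaches toward the site of peptide bond formation, read 7.79, 7.86, 7.68 and 7.86 in FVBN + Doxy and 8.25, 8.12, 8.06, 8.03 and 8.14 in tTA + Doxy. Every tTA + Doxy array was above every FVBN + Doxy array. The log2 difference was 0.32 ± 0.05, a fold of 1.25 (limma adjusted p = 0.000796). The Doxy difference of this gene was 0.01 ± 0.04 in tTA and -0.10 ± 0.07 in FVBN, and the higher level in tTA was seen with and without Doxy.

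Mrpl54, a protein specific to the mitochondrial large subunit, read 5.85, 5.93, 5.82 and 5.91 in FVBN + Doxy and 6.22, 6.30, 6.29, 6.32 and 6.26 in tTA + Doxy. The groups did not overlap (0.40 ± 0.07, a fold of 1.32, limma adjusted p = 0.00145). Without Doxy it read 6.07 and 6.02 in FVBN control, within the range of 5.92 to 6.40 in tTA (0.16 ± 0.08, limma adjusted p = 0.326).

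Mrps10 and Mrps25 followed, and in both the FVBN + Doxy group had the lowest mean, with single arrays overlapping the tTA group. Mrps10 read 6.78, 6.61, 6.80, 6.71 and 6.80 in tTA + Doxy, all above the FVBN + Doxy values given earlier (0.36 ± 0.07, a fold of 1.29, limma adjusted p = 0.00295). In tTA it ran from 6.40 to 6.75, around the 2 controls, and the difference without Doxy was -0.04 ± 0.08. Mrps25 read 7.02, 7.06, 7.24, 7.21 and 6.96 in tTA + Doxy, each above the highest FVBN + Doxy array at 6.95 (0.45 ± 0.10, a fold of 1.36, limma adjusted p = 0.00869). Its means in FVBN control, tTA and tTA + Doxy were 7.10, 7.09 and 7.10, against 6.65 in FVBN + Doxy. The plain probe set of Mrps25 was called in the same direction with a smaller difference, 0.25 ± 0.07 (limma adjusted p = 0.0363).

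Mrpl20 was called here too (0.23 ± 0.06, limma adjusted p = 0.0181), with all 5 tTA + Doxy arrays (7.24 to 7.50) above the 4 FVBN + Doxy arrays (7.06 to 7.14). Without FVBN + Doxy array 8337 the difference was 0.22 and the adjusted p 0.0555, and in the fit with the beta-actin covariate 0.18 and 0.101. Mrpl43, specific to the mitochondrial large subunit, read 7.10, 7.30, 7.20 and 7.25 in FVBN + Doxy and 7.42, 7.32, 7.37, 7.47 and 7.38 in tTA + Doxy (0.18 ± 0.05, limma adjusted p = 0.0383). The groups were separated by a narrow gap between 7.30 and 7.32. Its call ended without FVBN + Doxy array 8337 (adjusted p = 0.142), 8340 (0.0823) or 8341 (0.0667), without tTA + Doxy array 7399 (0.0696), 7485 (0.0643), 7486 (0.0955) or 7488 (0.0714), and with all probe sets (0.0627). Mrpl27, Mrpl54, Mrps10 and Mrps25 were called in this comparison in every alternative run. The beta-actin ratio was lower in tTA + Doxy than in FVBN + Doxy by 0.148 (exact two-sided permutation test, p = 0.0159, adjusted 0.0635 over 4 tests), and in the fit that takes it as a covariate these 4 kept their calls.

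Among the members that did not pass, Mrps7, whose bacterial counterpart starts assembly of the head of the small subunit, gave 0.16 ± 0.05 (limma adjusted p = 0.0892), Mrpl58 0.16 ± 0.06 (adjusted p = 0.1) and Mrps2 -0.17 ± 0.07 (adjusted p = 0.15). Mrpl18 was read from a family probe set (0.09 ± 0.05). A dimmer probe set of the same gene was called higher (0.29 ± 0.07, limma adjusted p = 0.0219).

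None of the 4 translation factors was called by limma in any comparison. At an unadjusted p under 0.05 there was 1 for Doxy in FVBN (Gfm1), 1 for Doxy in tTA (Mtif2), 2 in tTA without Doxy (both of these) and 1 under Doxy (Tufm). Tufm, the elongation factor that brings aminoacyl-tRNA to the ribosome, read 8.34 and 8.31 in FVBN control and 8.55, 8.38, 8.42 and 8.51 in FVBN + Doxy. In tTA it ran from 8.13 to 8.53, and in tTA + Doxy it read 8.27, 8.36, 8.24, 8.07 and 8.24. The lower level in tTA + Doxy than in FVBN + Doxy (-0.23 ± 0.08, limma adjusted p = 0.0813) came from a probe set of reduced specificity, and the plain probe set of Tufm gave 0.03 (adjusted p = 0.849). The 2 probe sets of this gene therefore gave opposite signs, and no direction is given for it.

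Tsfm, which recycles Tufm, was the steadiest of the 4 factors, with group means of 7.84, 7.76, 7.79 and 7.84 in FVBN control, FVBN + Doxy, tTA and tTA + Doxy. Gfm1, which drives translocation, read 7.16 and 7.11 in FVBN control, 6.87, 7.04, 7.09 and 6.80 in FVBN + Doxy, 6.75 to 7.11 in tTA and 6.83, 6.88, 6.98, 6.93 and 6.95 in tTA + Doxy. The FVBN control arrays were at or above every other array (-0.18 ± 0.09 for Doxy in FVBN, limma adjusted p = 0.411; -0.20 ± 0.08 for tTA without Doxy, adjusted p = 0.204). Mtif2, the initiation factor, had the largest difference of the factors: it read 6.79 and 6.96 in FVBN control, and in tTA it ran from 6.38 to 6.85 with a median of 6.53. The arrays overlapped through tTA array 7294 at 6.85 (-0.33 ± 0.10, limma adjusted p = 0.0835), and without that array the difference was -0.37 and the adjusted p 0.0219.

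Other genes of mitochondrial gene expression gave few calls. In the Doxy comparisons none of the lists around the mitochondrial ribosome held a called gene: ribosome proteins under other symbols (Dap3 and Ptcd3), other translation factors (C1qbp and Qrsl1), 5 aminoacyl-tRNA synthetases, 6 assembly and rRNA modification genes, 10 of RNA synthesis and processing, 11 chaperones and proteases, and 12 of the Atf4 stress response. At an unadjusted p under 0.05, the RNA synthesis and processing genes had 1 lower in FVBN and 2 higher in tTA, the chaperones and proteases 1 lower in FVBN and 2 higher and 1 lower in tTA, the stress genes 1 higher and 1 lower in FVBN, and the synthetases 1 lower in tTA. Over all tested probe sets the shares at that level were 11.8% in FVBN and 7.7% in tTA, and counts this small in lists of 5 to 12 genes are not read as a result. Dap3 and Ptcd3 both had negative values for Doxy in FVBN and positive values in tTA. Medians follow for Doxy in FVBN, in tTA and for the difference between genotypes. They were -0.058, 0.060 and 0.167 in chaperones and proteases, and -0.071, 0.043 and 0.144 in RNA synthesis and processing. They were -0.039, 0.029 and 0.058 in assembly and rRNA modification, and -0.100, -0.026 and 0.069 in synthetases. The stress genes (0.087, -0.017 and -0.059) and other translation factors (0.076, 0.007 and -0.069) had other signs. So the members' lean was not theirs alone. In tTA without Doxy, Slirp, which stabilises mitochondrial messenger RNA, was called lower (-0.37 ± 0.07, limma adjusted p = 0.00565), as was the import motor chaperone Hspa9 (-0.28 ± 0.07, adjusted p = 0.0284). They were 1 of 10 and 1 of 11 tested genes of their lists, against 2.82% of all tested probe sets called. Under Doxy, the stress factor gene Ddit3 was called higher in tTA (0.24 ± 0.06, limma adjusted p = 0.0194), 1 of the 12 genes of its list. Of all tested probe sets, 5.89% were called in that comparison (4.29% higher), and single calls in short lists are not read as a result.

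The nuclear subunits of the respiratory chain, whose partners the mitochondrial ribosome makes, had 7 of 61 genes called lower and 0 higher in tTA without Doxy, with a median of -0.084 (background 2.82%). Cox6a1 (-0.52), Ndufa6 (-0.38), Cox7a2l (-0.31) and Ndufv3 (-0.29) were the largest. Under Doxy 1 of 61, Ndufa6 (-0.22), was called lower, against a background of 5.89% in either direction. The values still leaned lower there, with 45 of 61 below 0, against 56.1% of all tested (median -0.033, against -0.015). At an unadjusted p under 0.05 there were 10 of 61, all lower, against 8.87% of all tested lower. For Doxy itself none was called by limma, with 3 of 61 at an unadjusted p under 0.05 in FVBN (1 higher, 2 lower), against a background of 11.8%, and 4 of 61 in tTA (all higher), against 7.7%. In FVBN 48 of 61 were below 0, against 46.4% of all tested (median -0.046), and in tTA 34 of 61 were above 0, against 45.6% (median 0.005). The difference between genotypes was above 0 in 47 of 61, against 47% of all tested (median 0.044). The cytosolic ribosomal proteins had medians of -0.004 and 0.028 for Doxy in FVBN and in tTA. They had 1 call in all, Rpl6, higher in tTA under Doxy (0.16), 1 of 28 against a background of 5.89%.

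The arrays resembled each other closely within groups, with Pearson r from 0.9925 to 0.9981 over 45 pairs and median deposited intensities from 60.74 to 62.45. All 9 cardiomyocyte markers were bright enough to be tested, and their summed intensity overlapped between groups, from 30130 to 34608 over all arrays, although Ryr2 was called lower in both tTA comparisons. None of the 3 adipocyte markers was bright enough. Smooth muscle markers summed to 756 to 885 in tTA, below the 1024 to 1113 of FVBN control, with Acta2 called lower (-1.27). The skeletal muscle markers summed to 2022 to 3965 in tTA against 1290 to 1571 in FVBN control. Of the 3 tested, Acta1 was called higher (1.68) and the other 2 were below 0. The sum of the erythroid markers ran from 2450 to 5372 in the tTA groups and from 4681 to 5548 in the FVBN groups. The macrophage and leukocyte markers, 8 of 9 tested, summed to 1321 to 1423 in FVBN control, 1451 to 1598 in FVBN + Doxy, 1171 to 1402 in tTA and 1239 to 1534 in tTA + Doxy. All 8 had values below 0 in both tTA comparisons, with Cd14 called lower under Doxy (-0.19). The endothelial markers, all 8 tested, summed to 2170 to 2223 in FVBN control, 1889 to 2244 in FVBN + Doxy, 1918 to 2109 in tTA and 1800 to 2004 in tTA + Doxy, with Emcn called lower in tTA without Doxy (-0.28). Beside these marker calls, 2.82% of all tested probe sets were called in tTA without Doxy and 5.89% under Doxy.

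No marker was called by limma in a Doxy comparison. Some summed levels did not overlap in FVBN, where 2 arrays stand against 4, and the sums were not tested. Of single tested probe sets, 12.7% were higher without overlap in that comparison and 10.8% lower. In FVBN the summed skeletal muscle markers, 3 of 6 tested, did not overlap, at 1290 to 1571 without Doxy and 1958 to 2291 with it. All 3 were above 0 (53.6% of all tested), with 1 at an unadjusted p under 0.05 (5.37% of all tested higher). The summed macrophage and leukocyte markers did not overlap in FVBN either, and 7 of the 8 were above 0 under Doxy in each genotype. At an unadjusted p under 0.05 there were 0 of these 8 in FVBN and 4 in tTA, all higher (background 7.7%). Of the 8 endothelial markers, 2 were lower at that level in FVBN (6.45% of all tested) and 1 in tTA (2.91% of all tested). The part of these cells in the member results was not tested.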

How the data were processed

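The deposited values are intensity values per probe set on a linear scale from Affymetrix mouse arrays of ventricular RNA, per the values in the deposited table. How the authors summarised probes, subtracted background and scaled arrays is not given in the sources used here. Probe sets were named from a platform annotation table, and 66 control probe sets were left out. The intensities of 19 arrays were quantile normalized, floored at the 10th percentile (14.36) and put on the log2 scale, and the brightest 60% (7453 of 12422 probe sets) were tested in limma 3.58.1 (R 4.3.3). The fit had 4 group means, an intensity trend and robust moderation. Each comparison had its p-values adjusted (Benjamini-Hochberg) over all tested probe sets, and a member was called at an adjusted p below 0.05. A floor and quantile normalization shrink differences of dim probe sets and assume that most probe sets do not differ. The script was tested on simulated data. The 1 array without a group was left out.

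Members, lists and the rule for named genes were chosen with earlier results of these data known, so counts and medians of members carry no test of their own. Named were every called member, the members with the 10 lowest p-values in each comparison, the translation factors, the genes beside the filter, and up to 4 called genes of each list. Arrays counted as showing a difference were those on its side of the mean in the other group. Alternatives were other scalings, floors, filters and fits, the beta-actin ratio as a covariate and each array left out. Python 3.11.15 and matplotlib 3.10.9 drew the plots.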

Additional observations from a re-analysis of the deposited data

Results flagged for a closer look

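An array far from the others was sought in 117 groups of 4 to 8 arrays, in a search that covered 34 named members. It was found in 3 groups, all of them in tTA, which is fewer than chance gives at about 1 in 20 groups. Mrpl15 was lowest on array 7311 at 7.52 (log2 intensity), with the next array at 7.71. Mrps36 was lowest on array 7294 at 8.69, with the next at 8.79. Mrps7, a small subunit gene, was highest on array 7288 at 7.47, with the next at 7.27. The 3 genes stand apart on 3 different arrays.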

How the results depend on the processing

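Doxy in tTA called 1 member, and 2 with arrays scaled to a common median, with no further normalization or with array weights, and 0 with all probe sets. The comparison of tTA with FVBN control called 2, and 6 with arrays scaled to a common median, 5 with no further normalization, 4 with the brightest 40%, 0 with the beta-actin covariate and 1 with tTA arrays 9310 and 9322 left out; leaving out each array gave 0 to 4. The median of large minus small subunit genes for Doxy in FVBN (-0.007) was 0.025 with arrays scaled to a common median and with no further normalization, and 0.016 as a mean. For the difference between genotypes (-0.029) it was -0.052 under both scalings and ran from -0.039 to -0.002 with each array left out, and for tTA under Doxy (-0.024) it was -0.046 with every member included. As a mean it was 0.005 for Doxy in tTA (median -0.016), 0.011 averaged over genotypes (-0.015) and -0.005 in tTA without Doxy (0.028, and 0.006 to 0.029 with each array left out). Leaving Mrps36 out of the small subunit, chosen after seeing the data, moved none of these differences beyond the spread between arrays. Plain probe sets, also chosen after seeing the data, turned Mrps18a to 0.03 in the difference between genotypes and Tufm to 0.03 in tTA under Doxy. The cause of these shifts was not tested.

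Of 60 pairs of a named member and a comparison, 1814 values under alternatives kept direction and side of the threshold, 27 gained a call, 32 lost one and 2 reversed. The member medians kept their sign with any array left out: -0.104 to -0.060 for Doxy in FVBN, 0.037 to 0.053 in tTA, -0.027 to -0.002 averaged, 0.120 to 0.162 for the difference, -0.114 to -0.088 in tTA without Doxy and 0.007 to 0.044 under Doxy. FVBN control holds 2 arrays, which limits every comparison that uses it. No paired analysis was possible because the groups share no replicate numbers.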
